A study of Saccharomyces cerevisiae with 4 samples.

Results

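The genes described here are the 56 genes of the cytosolic small-subunit ribosomal proteins of Saccharomyces cerevisiae, RPS0A to RPS31, taken by systematic name. They encode 32 proteins, 24 of them from a pair of paralogous genes (copies A and B) and 8 from a single gene. The table held 52 of the 56 genes, among 5799 genes in all. RPS10A, RPS10B, RPS19A and RPS30A had no row in it and were not analysed here, which left 31 proteins and 21 complete pairs.

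The samples were cultures of BY4741, a common haploid laboratory strain, whose labelled genotype is MATa with the alleles his3Δ1, leu2Δ0, met15Δ0 and ura3Δ0 and an intact LYS2. Untreated and treated cells carried the same alleles, although the number given to the ura3 allele differs between the labels of the 4 arrays. The medium was YPD, the temperature 28 °C and the absorbance at the start 0.6, and treated cultures of 50 ml then received 30 mM acetic acid for 2 h. Each of the 4 arrays compared untreated with treated RNA in 2 colours: 2 carried the treated RNA in Cy5 and the other 2, with dyes swapped, in Cy3. Arrays are called by the dye of the treated RNA and their replicate number. Values below are log2 ratios of treated over untreated RNA, in the order Cy5 array 1, Cy5 array 2, Cy3 array 1 and Cy3 array 2. Errors are SD over the arrays, with n = 4 unless stated.

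The direction of the ratios is likely rather than stated. The labels do not name the numerator, but all pairs of arrays correlated above 0 (r from 0.41 to 0.80 across genes), so the swapped arrays had already been turned. With the reading used here, 6 of 6 tested targets of the weak-acid factor Haa1 rose (adjusted p under the threshold of 0.05 in limma), with a median of 4.27, where 8.85% of all genes did. If the numerator was the untreated RNA, all signs given here turn. Base 2 is likewise an assumption. A ratio holds no level, so the labelled strain could not be checked through marker genes, and signal over background was not analysed here.

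The small ribosomal subunit binds the messenger RNA, scans for the start codon and matches codons to transfer RNA at its decoding centre. Its proteins lie in a head, which swivels over the messenger RNA, and in a body with a platform at the exit of the messenger RNA channel. In yeast, ribosomal protein genes are transcribed at high rates through the factors Rap1, Fhl1, Ifh1 and Sfp1, under control of the TOR and protein kinase A pathways, and as a class they are known to be repressed in many stresses. Most of these proteins are encoded by 2 genes whose coding sequences are nearly identical. Probes for one copy can therefore take up labelled RNA of the other. The probe design is not given in the sources used here, so the values of single copies are uncertain throughout.

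Most small-subunit genes lay slightly below 0 after acetic acid. The mean ratio was below 0 for 44 of 52 genes (84.6%), against 53.3% of the 5291 genes tested. The median was -0.25, a treated to untreated ratio of 0.844, against a median of -0.04 over all genes tested. No small-subunit gene passed an adjusted p of 0.05 in limma, in either direction, where 10.9% of all genes were called (8.85% higher and 2.02% lower). At an unadjusted p under 0.05, 14 genes (26.9%) were lower and 1 (1.92%) was higher, against 12.2% and 17.7% of all genes (29.8% in either direction). Of the 51 genes with 4 values, 29 (56.9%) were below 0 on every array and 1 (1.96%) was above 0 on every array, where all genes gave 19.3% and 22.9%. Copies may share labelled RNA, so the genes cannot be counted as independent.

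The changes were small for every gene of the group. Means ran from -0.67 (RPS18A) to 0.64 (RPS1A), and 0 of 52 differed from 0 by more than 1 on the log2 scale, a 2-fold change, against 7.71% of all genes. The 95% confidence interval of the mean from limma lay wholly within 1 of 0 for 50 of 52 genes, and for 69.4% of all genes. The remaining 2 intervals were those of RPS18A, which reached down to -1.09, and RPS1A, which reached up to 1.03. The means of the group had an SD of 0.24 between genes, against 0.68 for all genes. The spread over arrays was also narrower, with a median SD of 0.21 against 0.36. Leaving out Cy3 array 1 gave 5 calls among the 52 genes (RPS18A, RPS18B, RPS22A and RPS9B lower, RPS1A higher). The same omission raised the calls over all 5291 genes tested from 575 to 899. Over all genes, the distance between quartiles was 1.05 on Cy3 array 1. It was 0.60 and 0.68 on Cy5 arrays 1 and 2 and 0.71 on Cy3 array 2. Cy3 array 1 correlated with these arrays at 0.47, 0.41 and 0.62. Among the small-subunit genes its quartiles were 0.39 apart, against 0.23, 0.42 and 0.47. Whether the width of this array limits the calls was not tested.

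**Figure D1:**
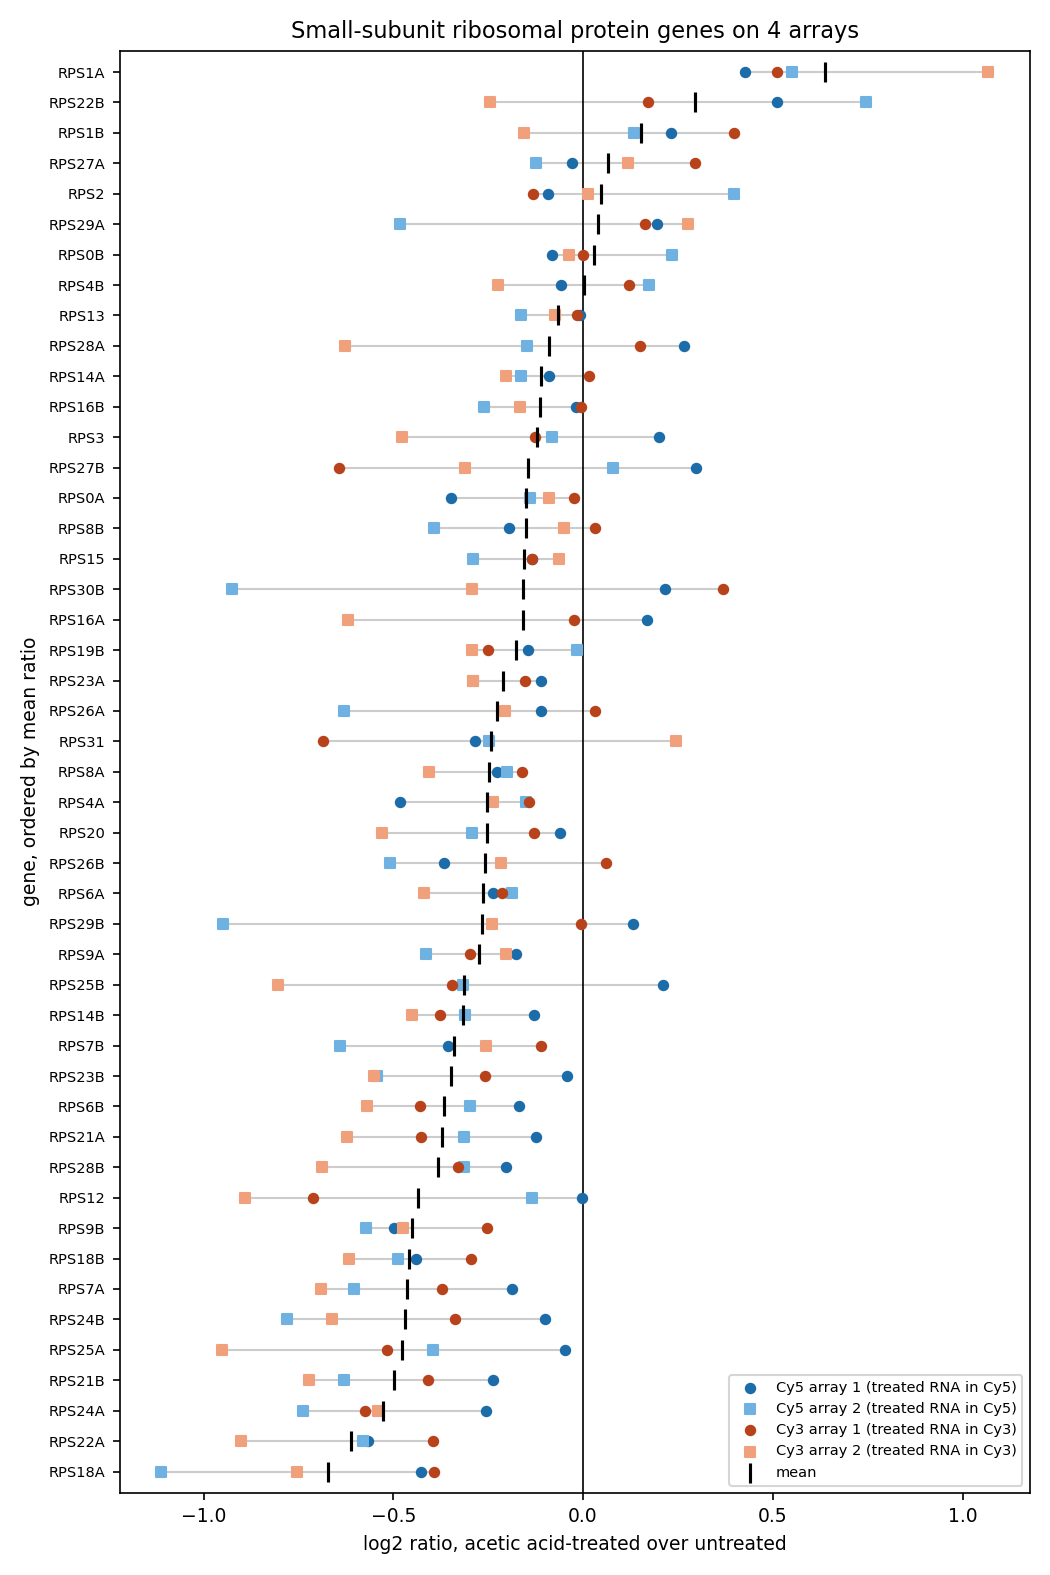
Log2 ratio of treated over untreated RNA (x axis) for 47 of the 52 small-subunit genes (y axis, ordered by mean), with a point for each of the 4 arrays, a grey line for their range and a black mark for the mean. Most genes sit between 0 and -0.5, and RPS1A is the one gene with all 4 points above 0.

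In the body and platform of the subunit, 26 of 33 genes had means below 0, with a median of -0.23. RPS22A (YJL190C), whose protein binds the central domain of the ribosomal RNA, had the smallest p of the whole group. Its ratios were -0.57, -0.58, -0.40 and -0.90, averaging -0.61 ± 0.21 (adjusted p = 0.0509 in limma). All 4 arrays lay below 0. RPS24A (YER074W) had -0.26, -0.74, -0.58 and -0.54 (mean -0.53 ± 0.20, adjusted p = 0.0724), and its copy RPS24B -0.10, -0.78, -0.34 and -0.66 (mean -0.47 ± 0.31). Both copies were below 0 on every array.

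RPS21B (YJL136C), whose protein contacts Rps0 in the assembled subunit, had -0.24, -0.63, -0.41 and -0.72, with a mean of -0.50 ± 0.22 (adjusted p = 0.0860 in limma). RPS21A lay a little closer to 0, at -0.37 ± 0.21. The partner genes RPS0A and RPS0B had means of -0.15 ± 0.14 and 0.03 ± 0.14. For Rps9, an early-binding protein, RPS9B had a mean of -0.45 ± 0.14 and RPS9A of -0.27 ± 0.11, each below 0 on all 4 arrays. The genes of Rps6, a protein phosphorylated downstream of TOR, had means of -0.26 ± 0.11 (RPS6A) and -0.37 ± 0.17 (RPS6B), again with every array below 0.

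RPS1A (YLR441C) went the other way. It encodes a platform protein at the exit of the messenger RNA channel, and its ratios were 0.43, 0.55, 0.51 and 1.07, with a mean of 0.64 ± 0.29 (adjusted p = 0.0593 in limma). It was above 0 on all 4 arrays, with 1 array, Cy3 array 2, higher than the rest. RPS22B (YLR367W) had 0.51, 0.75, 0.17 and -0.25, a mean of 0.30 ± 0.43 (adjusted p = 0.347), so that 3 arrays lay above 0 and Cy3 array 2 below it. The intron of RPS22B is known to host a small nucleolar RNA. The other body genes with means above 0 were RPS1B (0.15 ± 0.23), RPS27A (0.07 ± 0.18), RPS2 (0.05 ± 0.24), RPS0B and RPS4B (0.0033 ± 0.18), all within 1 SD of 0. RPS2 encodes a protein at the entry of the messenger RNA channel.

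In the head, 18 of 19 genes had means below 0, with a median of -0.25. RPS18A (YDR450W) had the lowest mean of the group. Rps18 lies at the top of the head near the transfer RNA sites, and the ratios of RPS18A were -0.43, -1.11, -0.39 and -0.75 (mean -0.67 ± 0.34, adjusted p = 0.0604 in limma). RPS18B had -0.44, -0.49, -0.30 and -0.62 (mean -0.46 ± 0.13). Both copies were below 0 throughout, and they differed most on Cy5 array 2.

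RPS25A, whose protein is needed by some viral internal ribosome entry sites, had -0.05, -0.40, -0.52 and -0.95 (mean -0.48 ± 0.37), and RPS25B had 0.21, -0.32, -0.35 and -0.80 (mean -0.31 ± 0.42). The copies kept the same order of arrays, while the arrays themselves spread over a wide range. RPS29A was the one head gene with a mean above 0 (0.04 ± 0.35).

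The 8 single-copy genes have no second copy among the small-subunit genes. Signal shared with genes outside the group, as through the ubiquitin part of RPS31, was not tested. Of the single-copy genes, 7 had means below 0 and RPS2 had a mean above 0. Their median was -0.14, against -0.26 for the 44 measured genes of pairs. RPS12 (YOR369C) had the lowest mean, with ratios of -0.0030, -0.14, -0.71 and -0.89 (mean -0.44 ± 0.43, adjusted p = 0.191 in limma). The 2 arrays with acid in Cy5 lay near 0 and the 2 with acid in Cy3 well below it, although the dye term did not pass (adjusted p = 0.665 in limma). RPS20 had a mean of -0.25 ± 0.21 and was below 0 on all 4 arrays.

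RPS13 and RPS15, both single copies, varied little between arrays. RPS13 had -0.0080, -0.16, -0.02 and -0.08 (mean -0.07 ± 0.07). RPS15, whose protein reaches into the decoding centre, had -0.13, -0.29, -0.13 and -0.06 (mean -0.16 ± 0.10). Both stayed within 0.3 of 0 on every array. RPS3, at the entry of the messenger RNA channel, had a mean of -0.12 ± 0.28 with values on both sides of 0. RPS31, which encodes a fusion of ubiquitin with a ribosomal protein, had -0.28, -0.25, -0.68 and 0.25 (mean -0.24 ± 0.38), so its 2 arrays with acid in Cy3 lay on opposite sides of 0.

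At the other end, 11 of the 52 genes had an SD over arrays above 0.35, against 52.0% of all genes. The widest was RPS30B, with 0.22, -0.93, 0.37 and -0.29 (mean -0.16 ± 0.58), followed by RPS29B with 0.13, -0.95, -0.0060 and -0.24 (mean -0.27 ± 0.48). Both were lowest on Cy5 array 2. RPS28A had 0.27, -0.15, 0.15 and -0.63 (mean -0.09 ± 0.40). For RPS16A, n was 3, with 0.17, -0.02 and -0.62 and no value on Cy5 array 2 (mean -0.16 ± 0.41).

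The median of the whole group differed between arrays more by replicate number than by dye. Its median was -0.12 on Cy5 array 1 and -0.14 on Cy3 array 1, but -0.31 and -0.29 on the replicates numbered 2. Medians of all genes stayed between -0.02 and 0.04 on the same arrays. The 8 single-copy genes had medians of -0.03, -0.15, -0.13 and -0.10, so for them Cy3 array 2 was not below Cy3 array 1. The ratio was lower on replicate 2 than on replicate 1 in both orientations for 35 of 51 small-subunit genes (68.6%), against 28.8% of all genes. In the large-subunit genes the share was 64.9%. Whether arrays with the same number share RNA is not stated. For the dye term, 0 of 52 genes passed in limma (0.227% of all genes did) and 0 had an unadjusted p under 0.05 (7.03% of all genes did).

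The medians of the head genes were -0.05, -0.30, -0.25 and -0.62, while those of the body and platform genes were -0.13, -0.31, -0.13 and -0.25. By origin, the 24 measured genes of proteins shared with bacteria had a median of the means of -0.16, and the 28 genes of proteins that bacteria lack had -0.26. These groupings were made with the values known, and the difference between the groups was not tested.

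**Figure D2:**
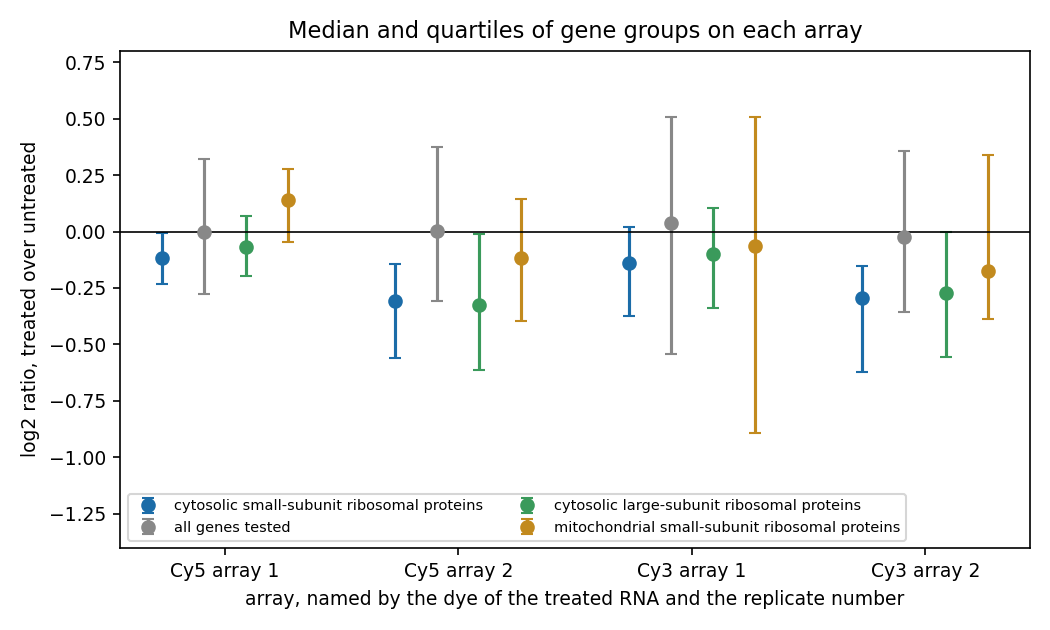
Median log2 ratio (points) and quartiles (bars) of 4 gene groups on each array, on a y axis of treated over untreated RNA. The small-subunit genes sit near -0.12 and -0.14 on replicates 1 and near -0.3 on replicates 2, and the large-subunit genes lie close beside them on each array.

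The copies of most pairs had similar ratios. Both means lay below 0 in 15 of 21 pairs, both above in 1 (RPS1), and on opposite sides of 0 in 5 (RPS0, RPS4, RPS22, RPS27 and RPS29). Of these 5, only RPS22 kept its higher copy above 0 whichever array was left out. The higher copies of the others (RPS0B, RPS4B, RPS27A and RPS29A) had means near 0 that turned sign without some arrays. The median absolute difference between the means of copies was 0.16, and 13 of 21 pairs differed by less than 0.2. Between genes of different small-subunit proteins with 4 values the same median was 0.21. Taken array by array, the mean absolute distance between copies had a median of 0.20 in the 20 pairs with 4 values. Over all 1255 combinations of 2 genes of different small-subunit proteins the median was 0.32, and 17 of the 20 pairs lay below that value. Shared hybridisation between copies was not tested and cannot be told apart from shared expression in these data.

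RPS26, whose protein lines the exit of the messenger RNA channel, had the smallest difference of means, 0.03 ± 0.16, with RPS26A at -0.23 ± 0.28 and RPS26B at -0.26 ± 0.24. The copies of RPS24 differed by -0.06 ± 0.17. For RPS16 the difference was -0.09 ± 0.33 over 3 arrays, and RPS16B had a mean of -0.11 ± 0.12.

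RPS22 was the pair furthest apart. RPS22A lay below RPS22B on each array, by -1.08, -1.33, -0.57 and -0.65, a mean difference of -0.91 ± 0.36. All 4 differences have the same sign. A distance as large was found in 1.67% of the combinations of genes of different proteins. Because RPS22 was picked as the widest of 21 pairs, this share is not a test of the pair. RPS1A lay above RPS1B by 0.19, 0.42, 0.11 and 1.22 (mean 0.49 ± 0.51), with most of that difference on Cy3 array 2. In the RPS29 pair copy A was higher by 0.30 ± 0.22, and in the RPS28 pair by 0.29 ± 0.21. RPS28B had a mean of -0.38 ± 0.21, and its messenger RNA is known to be bound by the Rps28 protein in a feedback on its own decay. In all, 10 of 20 pairs with 4 values had differences of the same sign on every array. An exact sign-flip permutation test over 4 arrays, two-sided, cannot give a p under 2 of its 16 sign patterns. These 10 pairs reached that smallest value (adjusted p = 0.262 over 21 pairs), so no pair could pass.

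**Figure D3:**
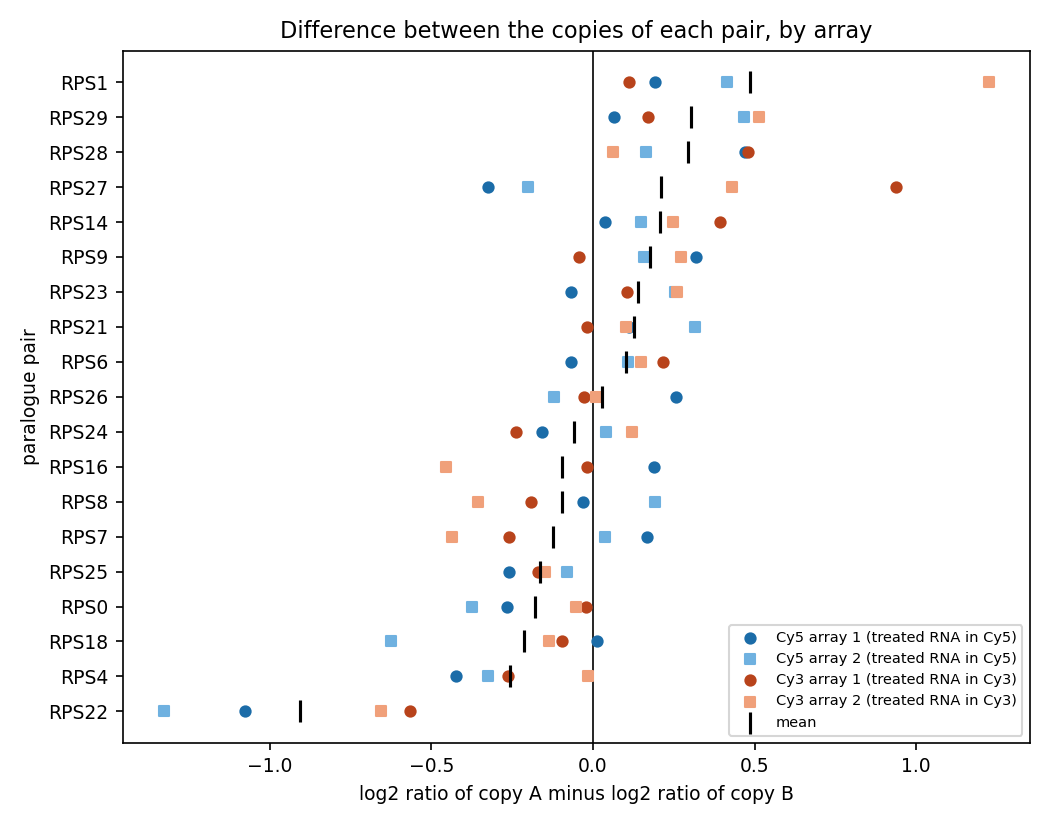
Difference between the log2 ratios of copy A and copy B (x axis) for 19 of the 21 pairs with both copies measured (y axis), with a point per array and a black mark for the mean. RPS22 stands at the far left with all 4 points below -0.5, and RPS1 at the top has all 4 points above 0.

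Some small-subunit genes lie beside genes with large changes, although only 4 of 83 tested adjacent genes were called (4.82%, against 10.9% of all genes). In the order of genes in RefSeq assembly R64, RPS8B is adjacent to SSA4, a stress-induced Hsp70 gene whose ratio rose by 6.43 ± 0.81. RPS8B itself had -0.20, -0.39, 0.03 and -0.05 (mean -0.15 ± 0.19). RPS6B lies between SMP1, a transcription factor gene that rose by 3.16 ± 0.41, and DTR1, a transporter gene that rose by 0.71 ± 0.12, and its own mean was -0.37 ± 0.17. DTR1 lost its call without Cy5 array 1, Cy5 array 2 or Cy3 array 2 (adjusted p = 0.130, 0.0993 and 0.0982 in limma), with same-numbered arrays averaged (0.0963) and with a minimum fold of 1.5 (1.0). RPS26B is adjacent to COM2, which rose by 3.002 ± 0.54. The genes RPS14B, RPS22A and RPL39 follow one another, and their means were -0.32 ± 0.14, -0.61 ± 0.21 and -0.45 ± 0.78. Neither tested neighbour of RPS22B stood out (-0.13 and -0.22), nor did the tested neighbour of RPS1A (-0.10).

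**Figure D4:**
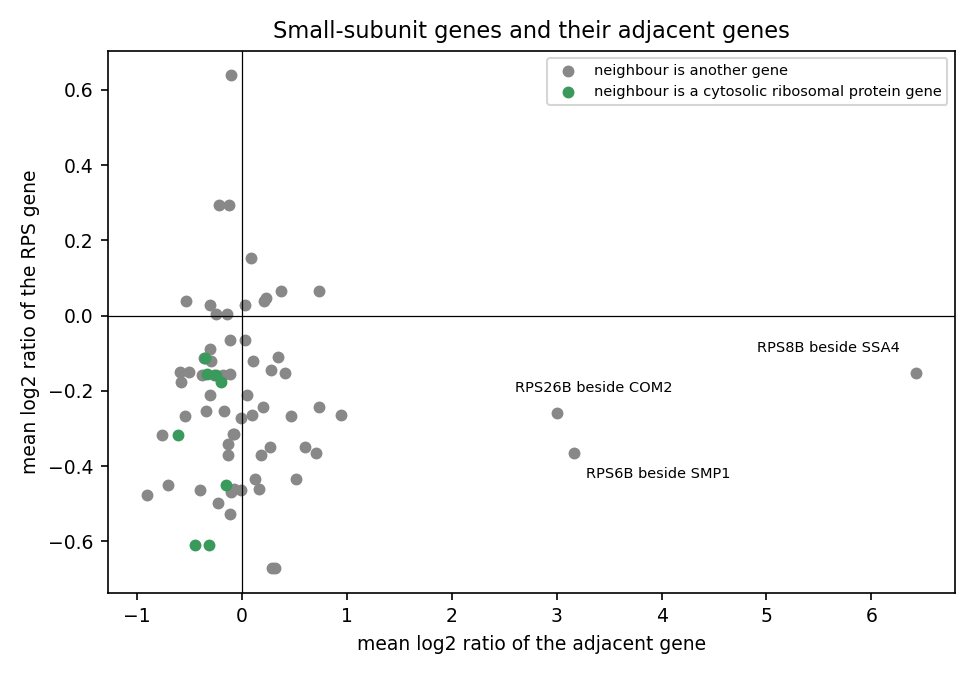
Mean log2 ratio of the 47 small-subunit genes plotted singly (y axis), where a neighbour has a value, against that of each adjacent protein-coding gene (x axis), with neighbours that are themselves cytosolic ribosomal protein genes in green. The genes beside SSA4, COM2 and SMP1 have ratios between -0.37 and -0.15 while those neighbours lie at 3.002 or above.

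The large-subunit genes gave values close to those of the small subunit. Of 77 genes, 59 had means below 0, with a median of -0.24, and 0 passed (19 lower and 0 higher at an unadjusted p under 0.05 in limma). Over all genes 53.3% had means below 0 and 10.9% passed, with 12.2% lower and 17.7% higher at that unadjusted p. Among the large-subunit genes RPL24B and RPL11A had the smallest p. Their means were -0.68 ± 0.35 and -0.53 ± 0.18 (adjusted p = 0.0627 and 0.0691 in limma). The 32 genes of mitochondrial small-subunit proteins had a median of -0.07, with 1 gene higher (MRP10, 2.39 ± 1.22, adjusted p = 0.0209 in limma) and 0 lower, where 8.85% and 2.02% of all genes were called. MRP10 lost its call without Cy5 array 1, Cy5 array 2 or Cy3 array 2 (adjusted p = 0.0935, 0.0748 and 0.0643), with no shared variance (0.165) and with a minimum fold of 1.5 (0.0861).

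Among 13 tested genes that regulate ribosomal protein transcription, 1 rose and none fell, with a median of 0.13, where 8.85% of all genes rose. That gene was STB3, whose protein binds a motif of ribosome biogenesis promoters as a repressor, with 0.63, 0.78, 0.86 and 0.96 (mean 0.81 ± 0.14, adjusted p = 0.0171 in limma). Its call was lost without Cy5 array 1, Cy5 array 2 or Cy3 array 2 (adjusted p = 0.0719, 0.0819 and 0.103), with same-numbered arrays averaged (0.0701) and with a minimum fold of 1.5 (0.946). Of 17 genes for assembly and export of the small subunit, 12 had means above 0 (median 0.18) and 1 rose, against 46.7% and 8.85% of all genes. HMT1, an arginine methyltransferase that acts on Rps2, had 0.47, 0.48, 0.93 and 0.60 (mean 0.62 ± 0.21, adjusted p = 0.0493). HMT1 also lost its call without any of those 3 arrays (adjusted p = 0.152, 0.132 and 0.177) and with the replicate block (0.0780). The same held with same-numbered arrays averaged (0.123), a minimum of 2 values (0.0527), no shared variance (0.104) and a minimum fold of 1.5 (1.0).

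No initiation factor gene passed among 25 in limma (0 lower and 4 higher at an unadjusted p under 0.05), and the median was 0.07. TIF2 (0.70 ± 0.38), a copy of the helicase eIF4A, and HCR1 (0.67 ± 0.39), of eIF3, had the smallest p (adjusted p = 0.0642 and 0.0730). Of 9 genes of ribosome-associated factors 0 passed (1 lower and 2 higher at an unadjusted p under 0.05). Over all genes 10.9% passed, and 12.2% were lower and 17.7% higher at an unadjusted p under 0.05. An absence of calls among 9 genes therefore says little. SSB1 and SSB2, which encode nearly identical ribosome-bound Hsp70 chaperones, had means of -0.54 ± 0.24 and 0.46 ± 0.31 (adjusted p = 0.0762 and 0.132), a pair of copies on opposite sides of 0 as in RPS22.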

How the data were processed

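Per the labels' protocols, acid phenol extraction of total RNA was followed by indirect labelling. The table deposited by the authors has 1 entry for each gene on each array, read here as a log2 ratio of the channels because values are signed with medians near 0. For scanner, background correction, normalization and averaging of spots, the method is not given in the sources used here. Biological replicates is what the design text calls the arrays, whose small number limits precision. If same-numbered arrays share RNA, n is 2.

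Genes with at least 3 values (5291 of 5799) entered lmFit and eBayes of limma 3.58.1 in R 4.3.3, with an intercept alone. Tests were two-sided, with Benjamini-Hochberg adjustment over all genes and a threshold of 0.05. The fit was also run on simulated data with arrays drawn independently. How often it found changes as small as those of the small-subunit genes is not reported here. Deviations from the mean of each orientation correlated at 0.252 between arrays of the same number, and 2 pairs were too few to take the numbers as a pairing. The random replicate block was fitted with a consensus correlation of the opposite sign, -0.109. Current symbols came from RefSeq R64, by locus tag for 5316 genes. The choice of this gene family, of the lists, of groupings by subunit region and of tests was made with earlier results of these data known, and the members were then taken by name. Named genes were the 6 lowest and 6 highest means, the 4 smallest p, the 4 pairs with the largest and the 4 with the smallest difference of means, and all single copies. Each other list gave up to 4 called genes, or its 2 genes of lowest p. The values of 5 of the measured members are not reported singly here, and the plots of single genes and pairs leave them out. Other genes are named in addition, after their values were seen. Comparisons of promoter motifs and protein sequences were planned but not made. Alternatives were a dye term, the replicate number as a fixed or random block, averages of same-numbered arrays, centred or scaled arrays, quantile normalization, other minimums of values, robust or no shared variance, a minimum fold of 1.5 (limma's treat), leaving out each array and, added after the data were seen, leaving out the 4 pairs whose copies differ most.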

Additional observations from a re-analysis of the deposited data

Results flagged for a closer look

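RPS29A had 1 array far from the other three: -0.48 on Cy5 array 2, against 0.20, 0.16 and 0.28. Of 51 genes and 20 pair differences examined in this way, this was the only one to stand apart by Dixon's criterion, where chance gives about 1 in 20.

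The arrays of the 2 dye orientations lay on opposite sides of 0 for both copies of RPS27, and in opposite senses. RPS27A had -0.03 and -0.12 with acid in Cy5 and 0.30 and 0.12 with acid in Cy3, with a dye term (the distance of the Cy5 arrays from the mean over both orientations) of -0.14. RPS27B had 0.30 and 0.08 with acid in Cy5 and -0.64 and -0.31 with acid in Cy3, with a dye term of 0.33. Neither dye term passed in limma (adjusted p = 0.812 and 0.665).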

How the results depend on the processing

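The number of small-subunit genes below 0 ran from 43 to 46 over the alternatives with all members, and was 40 of 44 without the RPS1, RPS22, RPS28 and RPS29 pairs. The median ran from -0.30 to -0.20, and the median of all genes from -0.05 to -0.02. The number of small-subunit genes called moved from 0 to 3 with a random replicate block (RPS1A higher, RPS18A and RPS22A lower) and to 3, the same genes, with quantile normalization. It was 1 (RPS22A) with centred arrays, with scaled arrays and with a minimum of 4 values, and ran from 0 to 5 when single arrays were left out, with 5 without Cy3 array 1 and 0 without any of the others. Over all 5291 genes the random block gave 733 calls, quantile normalization 809, centred arrays 573 and scaled arrays 707. A minimum of 4 values gave 589 calls among 4896 genes. The fixed replicate block gave 0 and 424 calls among members and all genes, and averages of same-numbered arrays gave 0 and 377. Over all genes 575 were called, against 377 with same-numbered arrays averaged, 204 without shared variance, 168 with a minimum fold of 1.5, and 187 to 899 when single arrays were left out: 248, 230, 899 and 187 without acid in Cy5 replicates 1 and 2 and acid in Cy3 replicates 1 and 2. The median absolute difference within pairs ran from 0.14 to 0.20 when single arrays were left out. Over the 52 measured small-subunit genes, the same omissions turned the sign of 9, which ran as follows: RPS29A (-0.041 to 0.21), RPS2 (-0.070 to 0.11), RPS27A (-0.011 to 0.13), RPS28A (-0.21 to 0.089), RPS16A (-0.32 to 0.073), RPS0B (-0.040 to 0.065), RPS4B (-0.054 to 0.079), RPS27B (-0.29 to 0.021) and RPS30B (-0.33 to 0.098). RPS4B also turned with scaled arrays (-0.0069) and with quantile normalization (-0.012). The cause of these shifts was not tested. Signal over background was not analysed here, so what low signal limits is unknown.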
